A study of Mus musculus with 16 samples.

Results

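The genes for the mitochondrial ribosomal proteins were followed in lumbar dorsal root ganglia (DRG, where sensory neurons have their cell bodies, wrapped by glia) of mice with an inflamed paw. They were taken by symbol: every protein-coding row named Mrpl or Mrps with a digit, which gave 76 of the 36722 genes of the table. Of these, 75 had a mean of at least 6.99 on the log2 scale and were among the 13385 genes tested. The exception was Mrpl53, which stood at the level of an undetected gene in all 16 libraries; 88.0% of its exonic bases lie in the same-strand gene Gm42688, and its expression could not be judged. All mice were C57BL/6 and had received 20 µl of 2% carrageenan, an irritant that inflames the paw, 6 days before an intrathecal injection (into the fluid around the spinal cord). The injection held 1 µg of the IL4-10 fusion protein, in which the 2 anti-inflammatory cytokines are joined in 1 molecule (n = 6), 0.5 µg each of IL4 and IL10 unlinked, called the combination here (n = 5), or PBS, the vehicle (n = 5). Ganglia L3 to L5 were taken 6 h later and their polyA-selected RNA was sequenced. The labels do not say that each library is a separate mouse, so p-values measure the spread between these libraries. Mice without carrageenan were not analysed here, so every group carries the inflammation.

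Mitochondrial ribosomes (mitoribosomes) translate the few mRNAs of mitochondrial DNA, all of which encode core subunits of the respiratory chain and ATP synthase. Their rRNAs are mitochondrial transcripts, but all of their proteins are encoded in the nucleus, made in the cytosol and imported. The small subunit decodes the mRNA, and the large subunit joins amino acids and lets the chain out through an exit tunnel next to the inner membrane. Part of the proteins have bacterial homologues and the rest are specific to mitochondria. Of the 75 tested genes, 48 encode large-subunit proteins and 26 small-subunit proteins. The remaining one, Mrps36, keeps a ribosomal symbol but encodes a subunit of the 2-oxoglutarate dehydrogenase complex.

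Promoters of these genes are printed first because the genes share sequence features that the choice by symbol did not use. RefSeq promoter windows (GRCm38.p6, 250 bases before to 50 bases after the start) were found for 66 of the 75 genes, in 72 entries. They were searched on both strands for the letters of motifs known from promoters of nuclear genes for mitochondrial proteins. The motif of nuclear respiratory factor 1 (NRF1) was found in 18.1% of these promoters, against 9.39% of promoters of all tested protein-coding genes and 4.60% of all promoters in the table. The ETS motif CCGGAAG, which GABP binds, was found in 31.9%, against 15.9% and 8.86%. The YY1 motif AANATGGCG was found in 13.9%, against 4.60% and 2.38%. The SP motif GGGCGG was found in 54.2%, against 61.5% and 35.7%, and CCAAT in 38.9%, against 36.9% and 37.4%. In none of the 72 windows did an ETS match overlap a YY1 match (0 windows). These are counts of letters, not of bound sites. The genes shown next, apart from Mrps11, are among the largest increases against vehicle reported below. Others among those increases, such as Mrps31 and Mrpl46, had no NRF1, ETS or YY1 match. Pairs are shown for each of the first 3 motifs, with the match in capitals: Mrpl32 (chr13:14612988-14613287, minus strand) and Mrpl12 (chr11:120484387-120484686, plus strand) for NRF1, Mrps22 (chr9:98601630-98601929, minus strand) and Mrpl18 (chr17:12916042-12916341, minus strand) for ETS, and Mrpl35 (chr6:71823735-71824034, minus strand) and Mrps11 (chr7:78782881-78783180, plus strand) for YY1.
Mrpl32: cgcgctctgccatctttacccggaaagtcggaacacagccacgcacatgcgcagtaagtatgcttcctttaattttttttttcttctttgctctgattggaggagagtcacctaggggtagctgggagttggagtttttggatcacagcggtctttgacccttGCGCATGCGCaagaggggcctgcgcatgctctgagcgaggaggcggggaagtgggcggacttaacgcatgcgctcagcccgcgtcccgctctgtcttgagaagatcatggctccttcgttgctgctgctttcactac
Mrpl12: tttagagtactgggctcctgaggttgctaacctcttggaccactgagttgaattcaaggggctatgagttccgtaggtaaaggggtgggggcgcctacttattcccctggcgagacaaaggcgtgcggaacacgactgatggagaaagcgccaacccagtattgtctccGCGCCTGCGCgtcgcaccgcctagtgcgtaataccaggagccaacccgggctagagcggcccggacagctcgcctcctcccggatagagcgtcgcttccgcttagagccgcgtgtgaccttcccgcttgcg
Mrps22: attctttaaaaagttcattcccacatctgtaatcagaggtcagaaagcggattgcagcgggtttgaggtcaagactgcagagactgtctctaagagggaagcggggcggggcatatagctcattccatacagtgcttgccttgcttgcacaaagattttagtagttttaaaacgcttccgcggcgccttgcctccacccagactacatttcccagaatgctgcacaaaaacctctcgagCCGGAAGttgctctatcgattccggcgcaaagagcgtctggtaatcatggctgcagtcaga
Mrpl18: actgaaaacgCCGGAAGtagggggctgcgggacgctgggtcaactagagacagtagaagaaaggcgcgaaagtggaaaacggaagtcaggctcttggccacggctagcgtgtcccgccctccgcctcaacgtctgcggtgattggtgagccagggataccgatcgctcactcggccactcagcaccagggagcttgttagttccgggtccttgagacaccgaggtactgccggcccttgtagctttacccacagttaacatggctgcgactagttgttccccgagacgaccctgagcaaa
Mrpl35: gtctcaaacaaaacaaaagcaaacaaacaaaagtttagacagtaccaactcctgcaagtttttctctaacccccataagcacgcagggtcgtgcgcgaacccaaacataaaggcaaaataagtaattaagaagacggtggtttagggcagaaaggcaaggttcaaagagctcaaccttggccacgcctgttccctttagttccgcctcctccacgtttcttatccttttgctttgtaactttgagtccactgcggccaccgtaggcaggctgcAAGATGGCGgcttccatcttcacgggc
Mrps11: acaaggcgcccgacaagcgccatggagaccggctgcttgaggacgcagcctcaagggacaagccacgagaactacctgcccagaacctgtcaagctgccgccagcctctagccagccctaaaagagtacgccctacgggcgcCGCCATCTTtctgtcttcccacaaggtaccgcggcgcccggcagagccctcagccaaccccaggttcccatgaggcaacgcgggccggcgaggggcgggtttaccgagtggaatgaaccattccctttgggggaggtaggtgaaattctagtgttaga

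The matches begin at position -87 from the start in Mrpl32, -81 in Mrpl12, -11 in Mrps22, -240 in Mrpl18 and -108 in Mrps11. That of Mrpl35 lies inside the transcript, at base 24. Of the 13 genes with an NRF1 match, 10 rose with the fusion protein and 6 with the combination; of the 53 with a promoter entry and no match, 22 and 24 rose. For the 23 genes with an ETS match the counts were 9 and 7, and for the 43 without one 23 and 23. For the 10 with a YY1 match they were 2 and 3, and for the 56 without one 30 and 27. Genes with an ETS or YY1 match thus rose less often than those without. Of all tested genes 12.0% rose with the fusion protein and 24.2% with the combination. The combination counts of genes with an ETS or YY1 match are near that share. These counts are a description, without a test of the difference between the groups of genes.

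Another shared feature is a close neighbour on the other strand. The start of an opposite-strand protein-coding gene lay within 1 kb of the start of 33 of the 75 genes (44.0%), against 15.1% of the tested protein-coding genes, 1967 of 13012. Several partners are themselves mitochondrial: Mrpl36 faces Ndufs6, a complex I subunit, Mrps12 faces Sars2, the mitochondrial seryl-tRNA synthetase, and Mrpl43 faces Twnk, the helicase of mitochondrial DNA. In 1 case the partners are both members: Mrps11 and Mrpl46 start on opposite strands of chromosome 7 with overlapping first parts, and 141 bases of their promoter windows coincide. Exons of 31 of the 76 genes overlap those of another gene. The strand setting of the counting is not given in the sources used here, so reads of opposite-strand partners may not be told apart. The exonic share concerned is 69.8% in Mrps25, 63.4% in Mrps34, 36.0% in Mrpl19, 33.4% in Mrpl43, 30.5% in Mrps18b and 26.3% in Mrpl24. Reads in exons shared with a same-strand gene cannot be told apart by strand. Such shares include 36.97% in Mrps34 (Nme3), 23.2% in Mrps18c (Gm43511), 19.9% in Mrps6 (Gm49711) and 15.4% in Mrps24 (Urgcp). The part of shared exons in the results below was not tested.

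The deposited values are on a log2 scale and decode to whole numbers, called scaled values; they are not read counts, and read depth is unknown. Summed over the tested genes and in units of 1000000, they came to 16.6 to 19.0 in fusion protein, 18.1 to 20.8 in combination and 17.1 to 18.7 in vehicle libraries. Each of the 7 lists of cell type markers, neurons included, was detected, with no marker at the floor. Of 10 macrophage markers 5 were higher with the fusion protein than with vehicle (summed scaled values of 3538 to 6702 against 2599 to 4552), and 3 of 5 satellite glia markers were higher with the combination (16594 to 19610 against 11957 to 15310). Of all tested genes 12.0% and 24.2% were higher. Of the satellite glia markers 1 was lower with the fusion protein. Of 5 fibroblast markers 1 was higher and 2 lower with the fusion protein, and 2 were higher and 2 lower with the combination. The nuclear RNA Malat1 had a median of 7749.5 in fusion protein, 7569 in combination and 18335 in vehicle libraries, and the mitochondrial rRNA mt-Rnr2 10524, 10079 and 25560. The part of these differences in the results below was not tested. In whole ganglia, a change in the number of cells of a type and a change in RNA per cell cannot be told apart.

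Per kilobase of exons, mean scaled values of the 75 genes ran from 16.0 to 1273. The highest were Mrpl41, Mrps21 and Mrpl20, at 1273, 689 and 564 per kb. The lowest were Mrpl23 (16.0), Mrps35 (31.5) and Mrps30 (53.2); Mrps30 belongs to the large subunit despite its name. Mrpl23 was also the gene nearest above the filter, with scaled values of 60 to 87 in fusion protein, 52 to 143 in combination and 76 to 93 in vehicle libraries, whereas Mrpl53 just below it stood at a scaled value of 1. The genes are short: their median exonic length was 2255 bases, against 4616 for all tested genes, and 80.0% were shorter than the median gene. Their median GC content of 46.2% lay near the 45.7% of all tested genes, with a range from 36.97% (Mrpl32) to 59.15% (Mrps34).

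With the fusion protein, 34 of the 75 genes rose against vehicle, none fell and 41 did not pass (limma, adjusted p under 0.05 over all tested genes). Over all tested genes 12.0% rose and 13.7% fell. Differences were small: the median over the 75 genes was 0.19 on the log2 scale (all tested genes, -0.02). Positive differences were found in 66 of 75, and in 6201 of all 13385 tested genes. Of those that passed, the largest increases were those of Mrpl18, Mrpl12, Mrpl32, Mrpl9, Mrpl14, Mrps31, Mrps7 and Mrpl46, from 0.44 down to 0.31. The call of Mrpl14 was weak, kept in 3 of 11 omissions of a single library. In 22 genes every fusion protein library lay above every vehicle library, against 7.76% of all tested genes, and in 0 genes did every one lie below (6.57%). An unadjusted limma p under 0.05, in either direction, was reached by 43 of the 75 genes, and by 5086 of all 13385 tested genes. The count of 34 fell to 21 without vehicle replicate 2 and to 22 without vehicle replicate 3. Calls over all tested genes dropped as well, from 12.0% higher to 8.79% and 8.70%.

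Mrpl18, a protein that in the bacterial ribosome binds the 5S rRNA, had scaled values of 570, 580 and 717 (lowest, median, highest) in fusion protein libraries, against 469, 396, 389, 387 and 446 in vehicle libraries. All fusion protein libraries were above all vehicle libraries. The log2 difference was 0.44 ± 0.07 (SE), limma adjusted p 0.000365. The combination libraries, at 476, 567, 586, 640 and 539, were above vehicle as well, by 0.34 ± 0.08 (adjusted p 0.00174). Exons of Mrpl18 share 10.1% of their bases with the opposite-strand gene Tcp1.

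Mrpl12 encodes the flexible stalk protein that recruits translation factors, and also binds the mitochondrial RNA polymerase. It had 526, 612 and 845 in fusion protein libraries and 608, 391, 449, 331 and 534 in vehicle libraries. The groups overlapped, and the 2 highest fusion protein values were those with late label numbers. The log2 difference was 0.43 ± 0.13 (limma adjusted p 0.0192). Among the libraries with label numbers 1 to 8 alone it was 0.31 (adjusted p 0.12). Combination libraries had 534, 438, 515, 492 and 404, a difference of 0.05 ± 0.13 from vehicle (adjusted p 0.791).

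Mrpl11, at the stalk base, rose with both treatments: 654, 710.5 and 792 with the fusion protein, 910, 664, 762, 725 and 778 with the combination, and 625, 555, 573, 550 and 627 in vehicle. Both treated groups lay wholly above vehicle, by 0.25 ± 0.07 (limma adjusted p 0.0137) and 0.33 ± 0.07 (adjusted p 0.0019). Mrpl10, which anchors Mrpl12, was at 835.8 ± 65.6, 846.2 ± 98.4 and 821.6 ± 53.4 (mean ± SD, n = 6, 5 and 5) and passed in neither comparison. Mrpl1 of the opposite L1 stalk, which helps release used tRNA, did not pass either, with differences of -0.09 ± 0.09 and 0.08 ± 0.10.

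Around the exit tunnel, 4 of 6 genes rose with each treatment, where 12.0% (fusion protein) and 24.2% (combination) of all tested genes rose. With each library's trends on GC content and exonic length removed from all genes, 1 of 6 did, with medians of 0.06 and 0.08. That share of 16.7% is near the 12.6% and 15.5% of all genes that then rose. Mrpl45, which anchors the ribosome to the inner membrane, had 600, 654 and 717 in fusion protein, 670, 602, 655, 728 and 648 in combination and 549, 533, 546, 557 and 546 in vehicle libraries. The vehicle values were close together and below every treated library, with differences of 0.22 ± 0.06 (limma adjusted p 0.00968) and 0.23 ± 0.06 (adjusted p 0.00635). Mrpl22 was higher by 0.26 ± 0.05 and 0.30 ± 0.06, Mrpl24 by 0.20 ± 0.06 and 0.25 ± 0.06, and Mrpl47 by 0.23 ± 0.08 and 0.39 ± 0.08. The fusion protein call of Mrpl47 was weak, kept in 1 of 11 omissions of a single library. Mrpl17 and Mrpl23 did not pass: their differences were -0.01 ± 0.07 and -0.16 ± 0.09 with the fusion protein, and 0.10 ± 0.07 and -0.01 ± 0.10 with the combination.

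Of the small subunit, 10 of 26 genes rose with the fusion protein and 8 with the combination; of the large subunit, 24 and 25 of 48. Genes with bacterial homologues rose in 23 and 22 of 47 cases, those specific to mitochondria in 11 and 11 of 27. Among all tested genes 12.0% rose with the fusion protein and 24.2% with the combination. The 8 of 26 small-subunit genes that rose with the combination (30.8%) are not far from that share. Whether the shares of these classes differ was not tested. Mrps31, a protein specific to mitochondria at the head of the small subunit, had scaled values of 450, 454.5 and 508 with the fusion protein, 580, 531, 580, 538 and 461 with the combination, and 361, 344, 333, 351 and 319 in vehicle. Every treated library lay above every vehicle library. Its differences were 0.35 ± 0.06 (limma adjusted p 0.000476) and 0.52 ± 0.06 (adjusted p 1.2e-05). Mrps7, next to the mRNA path, rose with the fusion protein by 0.32 ± 0.09 (adjusted p 0.013); the combination difference of 0.20 ± 0.09 did not pass (adjusted p 0.0964).

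Mrps12, the decoding-centre protein, spread widely within groups, with 187 to 455 in fusion protein, 186 to 237 in combination and 144 to 460 in vehicle libraries, and passed in no comparison. The 3 copies of bacterial S18 are placed at different sites of the ribosome. Mrps18c rose by 0.27 ± 0.07 and 0.33 ± 0.07 and Mrps18b by 0.20 ± 0.07 and 0.38 ± 0.08, whereas Mrps18a had 0.12 ± 0.08 and 0.01 ± 0.09. Exons of Mrps18c and Mrps18b overlap those of other genes, as given above. The fusion protein call of Mrps18b was weak, kept in 3 of 11 omissions of a single library. Mrps36, the dehydrogenase subunit, did not pass, at 0.22 ± 0.10 and 0.17 ± 0.11. Of 12 genes whose human counterparts cause inherited mitochondrial disease when mutated, 5 rose with the fusion protein and 3 with the combination, and 1 (Mrps34) fell with the combination. The share of 3 in 12 that rose with the combination is near the 24.2% of all tested genes.

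**Figure D1:**
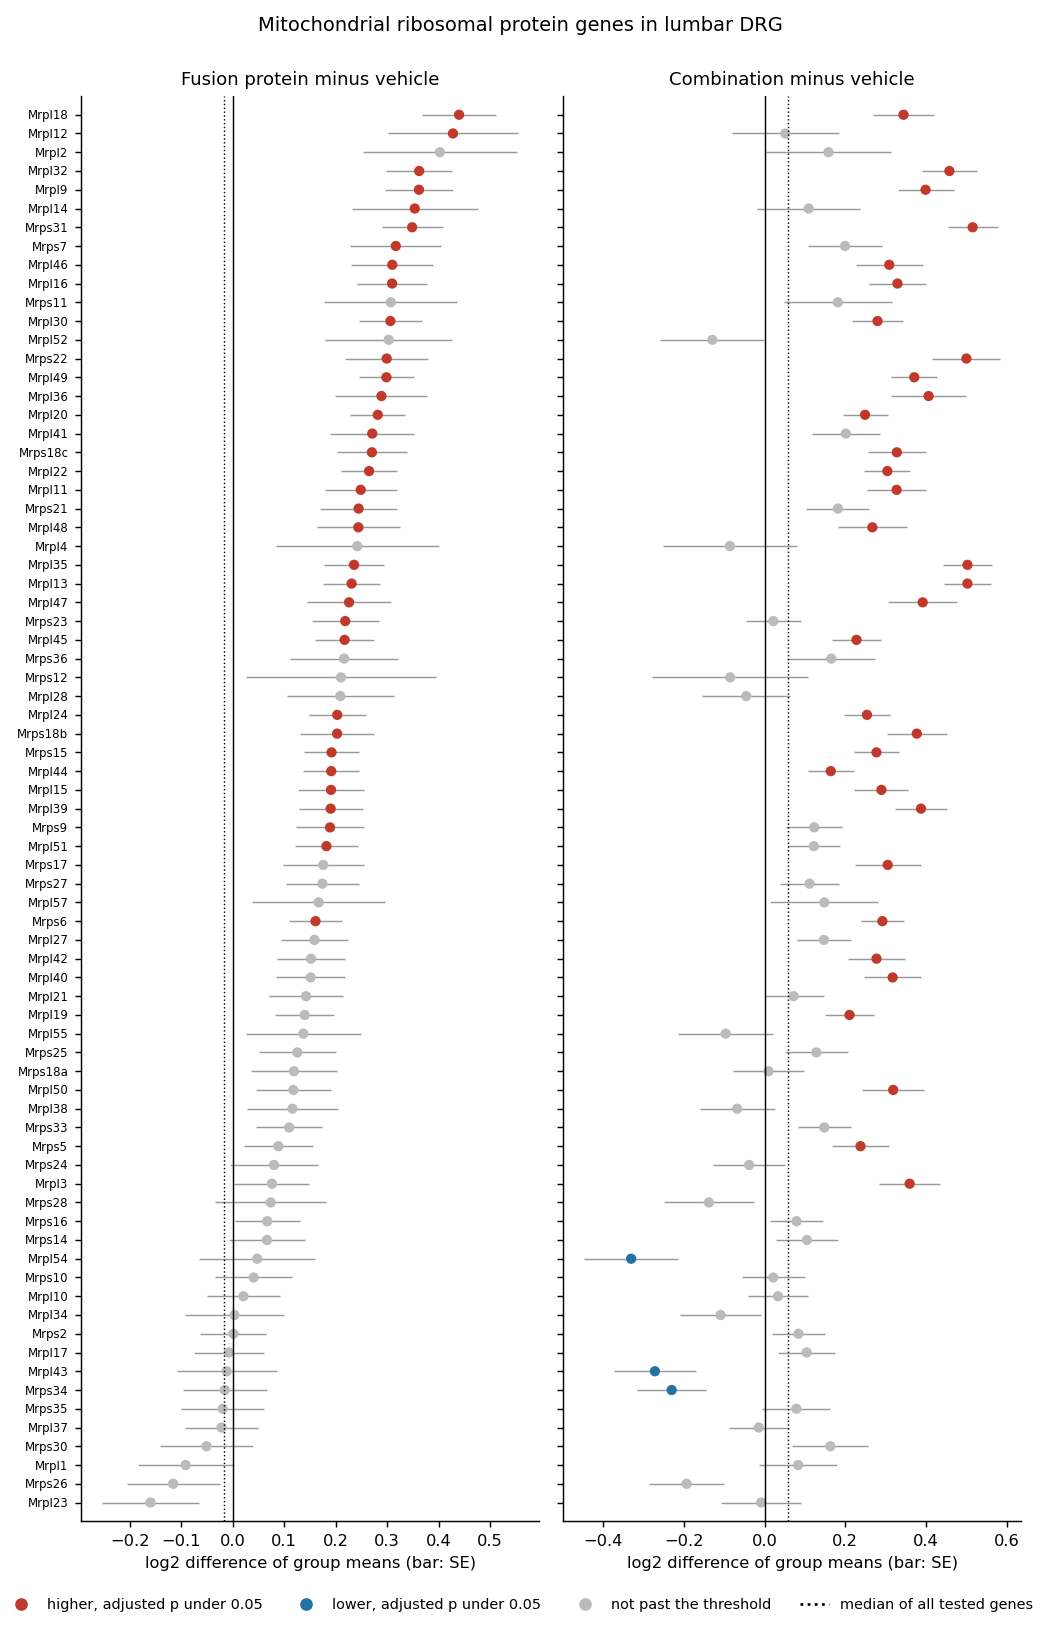
Log2 difference between group means (points, with SE bars) for each of the 75 tested genes, for the fusion protein minus vehicle (left) and the combination minus vehicle (right), ordered by the left panel. Red points are higher and blue points lower at adjusted p under 0.05; 34 genes are red on the left, and 33 are red and 3 blue on the right.

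With the combination, 33 genes rose against vehicle, 3 fell and 39 did not pass, where 24.2% of all tested genes rose and 12.3% fell. The median difference was 0.16, against 0.06 over all tested genes, and 60 of 75 were positive, as were 7956 of all 13385 tested genes. Of those that passed, the largest increases were those of Mrps31, Mrpl13, Mrpl35, Mrps22, Mrpl32, Mrpl36, Mrpl9 and Mrpl47, from 0.52 to 0.39. In 30 genes all combination libraries were above all vehicle libraries (15.1% of all tested genes), and in 1 gene all were below (7.91%). The vehicle libraries are shared with the fusion protein comparison, so the counts of the comparisons are not independent.

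Mrpl13, an essential protein of the bacterial large subunit, was at 924, 866, 863, 876 and 953 in combination libraries and 565, 609, 583, 638 and 594 in vehicle libraries. Fusion protein libraries lay between, with 649, 727.5 and 776 as lowest, median and highest value, and overlapped with neither group. The combination exceeded vehicle by 0.50 ± 0.06 (limma adjusted p 9.71e-06), and the fusion protein did by 0.23 ± 0.06 (adjusted p 0.00511).

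Mrpl35, of the large subunit, had combination values close together: 1485, 1460, 1447, 1439 and 1431, against 966, 1010, 944, 1081 and 950 in vehicle. Fusion protein libraries, at 1098, 1170.5 and 1302, again lay between without overlap. The differences from vehicle were 0.50 ± 0.06 (limma adjusted p 1.24e-05) for the combination and 0.24 ± 0.06 (adjusted p 0.00617) for the fusion protein. Mrps22, whose human counterpart is a disease gene, had 517, 526, 564, 560 and 542 with the combination and 368, 319, 311, 376 and 380 in vehicle, a difference of 0.50 ± 0.08 (adjusted p 0.000201). With the fusion protein it had 368, 457.5 and 562, overlapping with vehicle at the low end, and 0.30 ± 0.08 (adjusted p 0.0108).

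Mrpl32, which in yeast has to be cleaved by the inner-membrane m-AAA protease before it can join the ribosome, rose with both. It had 426, 485.5 and 544 with the fusion protein, 445, 560, 569, 560 and 503 with the combination, and 353, 354, 343, 340 and 370 in vehicle. All treated libraries were above all vehicle libraries, by 0.36 ± 0.06 (limma adjusted p 0.000649) and 0.46 ± 0.07 (adjusted p 6.58e-05).

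Mrpl54, Mrpl43 and Mrps34, the genes that fell with the combination, are all specific to mitochondria. Mrpl54 had 329, 302, 306, 294 and 219 with the combination, against 538, 379, 352, 333 and 374 in vehicle; the groups did not overlap, though vehicle replicate 1 stood far above the other vehicle libraries. Its difference was -0.33 ± 0.12 (limma adjusted p 0.0331). Mrpl43 had -0.27 ± 0.10 and Mrps34 -0.23 ± 0.09 (adjusted p 0.0415 each), both with overlapping groups. Mrps34 shares exonic bases with Mapk8ip3 on the opposite strand and Nme3 on the same strand. The part of these neighbours in its fall was not tested. None of the 3 fell with the fusion protein (0 genes), with differences of 0.05 ± 0.11, -0.01 ± 0.10 and -0.02 ± 0.08. These calls were weak: none of the 3 remained without combination replicate 4 or 5, or vehicle replicate 1 (0 genes each).

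**Figure D2:**
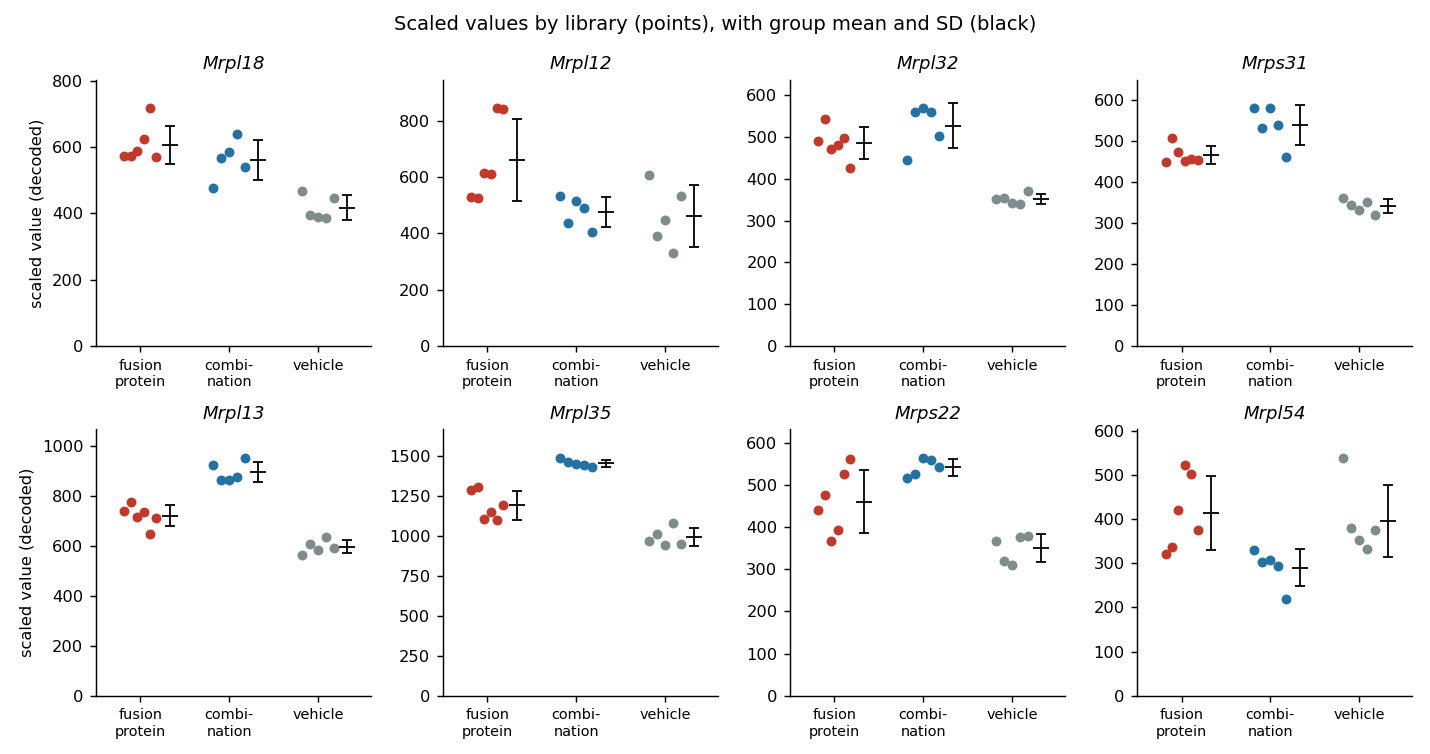
Scaled values of 8 genes in each library (points) with the group mean and SD (black, n = 6, 5 and 5), on axes that start at 0. Mrpl13 and Mrpl35 stand highest in combination and lowest in vehicle libraries without overlap, Mrpl12 is high in fusion protein libraries only in part, and Mrpl54 is lowest in combination libraries.

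The fusion protein and the combination differed directly in 11 of the 75 genes, against 29.5% of all tested genes: 5 were higher with the fusion protein and 6 lower, where 7.35% and 22.2% of all tested genes were. The median difference was -0.01 (all tested genes, -0.09), and its sign turned to 0.02 with median centring and to 0.03 with quantile normalization. Higher were Mrpl52 (0.43 ± 0.12, limma adjusted p 0.0175), Mrpl54 (0.38 ± 0.11), Mrpl12 (0.38 ± 0.13), Mrpl43 (0.26 ± 0.10) and Mrps23 (0.20 ± 0.07). Lower were Mrpl3 (-0.28 ± 0.07), Mrpl13 (-0.27 ± 0.06, limma adjusted p 0.0048), Mrpl35 (-0.27 ± 0.06), Mrpl50 (-0.20 ± 0.07), Mrpl39 (-0.20 ± 0.06) and Mrps31 (-0.17 ± 0.06). For 69 of 75 genes the 95% interval of the difference lay within 0.5 log2 units on either side of 0.

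Mrpl52 had 233, 290.5 and 388 with the fusion protein, against 193, 190, 217, 182 and 162 with the combination, and was the only gene with every fusion protein library above every combination library (3.09% of all tested genes). Vehicle libraries ran from 147 to 350 and overlapped both. In 4 genes every fusion protein library was below every combination library (6.44%), Mrpl13, Mrpl35, Mrpl39 and Mrps6. Mrpl3, near the peptidyl transferase centre, had 775, 859 and 1045 with the fusion protein, 1041, 1087, 1050, 1129 and 1188 with the combination, and 750 to 984 in vehicle; the first groups overlapped in 1 library. The count of 11 dropped to 4 without fusion protein replicate 4, 5 without fusion protein replicate 5, and 6 each without combination replicate 2, 4 or 5. Calls over all tested genes dropped in these omissions too, from 7.35% higher and 22.2% lower. They came to 4.09% to 5.43% higher and 10.8% to 15.9% lower.

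These differences were related to the GC content and the exonic length of the genes. The 75 genes were divided at their median GC content of 46.24%. Of the 38 at or below it, 22 rose with the fusion protein and 26 with the combination. Of the 37 above it, 12 rose with the fusion protein (32.4%), and 7 rose (18.9%) and 3 fell (8.11%) with the combination. Of all tested genes 12.0% rose with the fusion protein, and 24.2% rose and 12.3% fell with the combination. In the direct comparison all 5 genes higher with the fusion protein were in the GC-rich part and all 6 lower ones in the GC-poor part. Across the 75 genes, the difference correlated with GC content at Pearson r = -0.17 for the fusion protein, -0.60 for the combination and 0.57 for the direct comparison. Over all tested genes the values were -0.06, -0.51 and 0.46. With log2 exonic length, the differences of the 75 genes correlated at -0.28, 0.28 and -0.55, and those of all tested genes at -0.41, -0.13 and -0.28. For the fusion protein, the correlation with length was thus the stronger of both. Genes measured in the same libraries are not independent replicates.

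**Figure D3:**
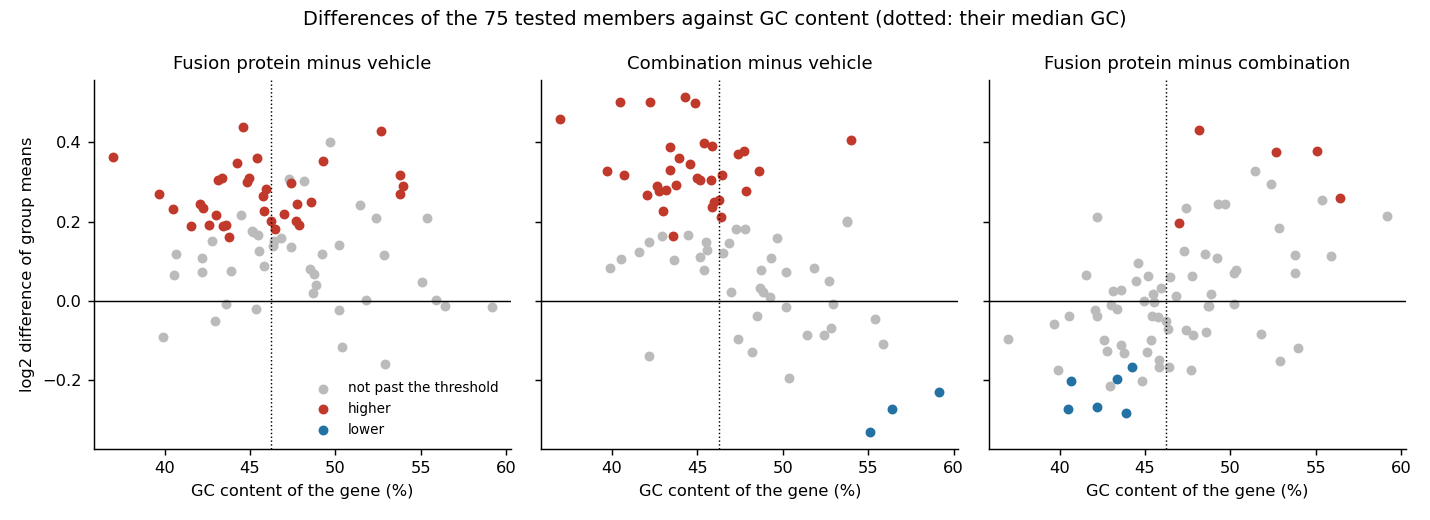
Log2 difference of each of the 75 genes against its GC content in percent, for the fusion protein minus vehicle, the combination minus vehicle and the fusion protein minus the combination. The middle panel falls from left to right (r = -0.60) and the right panel rises (r = 0.57); the dotted line is the median GC content.

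Library by library, the median over the 75 genes of the deviation from the vehicle mean was 0.13 to 0.24 in fusion protein, 0.15 to 0.22 in combination and -0.07 to 0.08 in vehicle libraries. Both treated groups lay above vehicle and overlapped with each other. After removal of these GC and length trends, the ranges were 0.03 to 0.14, 0.03 to 0.09 and -0.05 to 0.08, and all 3 groups overlapped. For the GC-poor genes it was 0.16 to 0.24 with the fusion protein, 0.27 to 0.30 with the combination and -0.06 to 0.04 in vehicle, so all 3 groups stood apart. For the GC-rich genes the ranges overlapped: 0.07 to 0.27, -0.04 to 0.16 and -0.12 to 0.15. The summed scaled value of the genes was 42572 ± 1329 with the fusion protein, 43137 ± 598 with the combination and 36612 ± 2006 in vehicle (SD, n = 6, 5 and 5). Per 1000000 of the library's scaled total these are 2402 ± 121, 2214 ± 130 and 2072 ± 152.

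**Figure D4:**
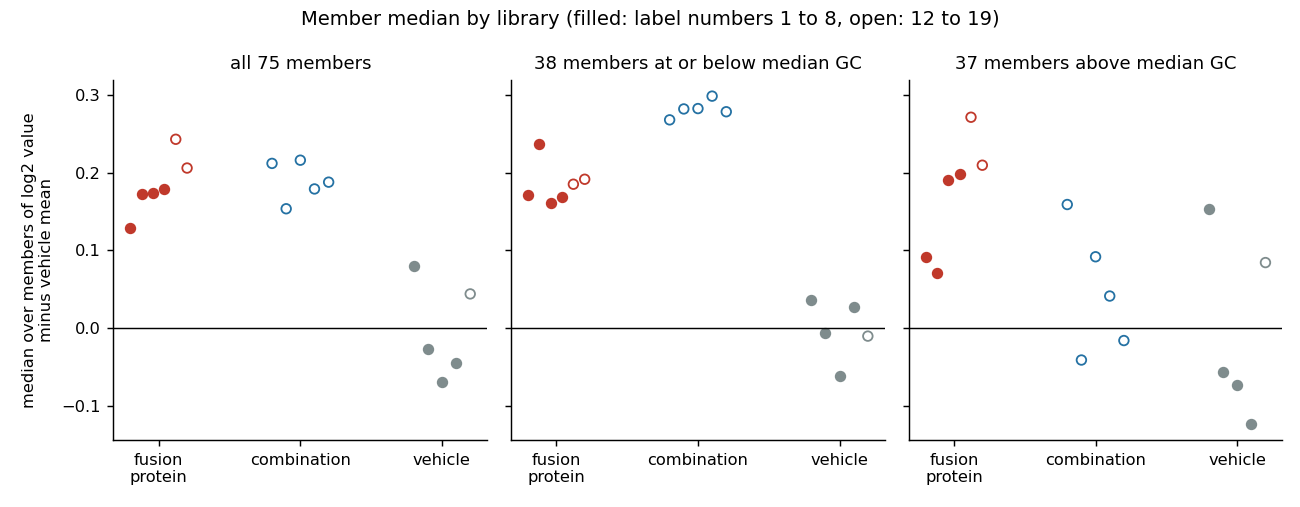
Median over genes of the log2 value minus the vehicle mean, 1 point per library, for all 75 genes, the 38 GC-poor and the 37 GC-rich ones. Filled points have label numbers 1 to 8 and open points 12 to 19; the GC-poor genes separate the 3 groups, and the GC-rich genes do not.

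With library trends on GC content and exonic length removed from all genes, which also removes any treatment difference that follows these properties, fewer calls were made. The fusion protein then gave 18 genes higher and 0 lower (all genes, 12.6% and 13.0%), with a median of 0.07, and 15 of the 34 earlier calls were kept. The combination gave 20 higher and 1 lower, Mrps28 (all genes, 15.5% and 10.6%), with a median of 0.07 and 18 of 36 calls kept. Mrpl54, Mrpl43 and Mrps34 did not pass. The direct comparison kept 1 call, Mrpl52 at 0.36 (adjusted p 0.0302), and gained Mrpl36 and Mrps18b, both lower with the fusion protein (4.94% of all genes higher, 6.79% lower). Mrps31, Mrpl13, Mrpl35, Mrpl32, Mrps22, Mrpl9 and Mrpl11 passed against vehicle for both treatments with the trends removed. Mrpl13 for example kept 0.29 (adjusted p 0.00149) with the fusion protein and 0.37 (adjusted p 0.000261) with the combination.

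The order of the sample numbers divides the libraries too: numbers from 12 to 19 belong to 1 vehicle library, to every combination library (5) and to fusion protein replicates 5 and 6, and what these numbers stand for is not stated. Within numbers 1 to 8, 4 fusion protein libraries against 4 vehicle libraries gave 15 genes higher and 0 lower, with a median of 0.17 (all tested genes, 7.67% higher). Within numbers 12 to 19, 5 combination libraries against 1 vehicle library, whose spread was taken to be like that of the others, gave 4 higher and a median of 0.16 (2.49%). Mrps31, Mrpl13 and Mrpl35 were among these 4, at 0.59, 0.51 and 0.55. In the direct comparison within those numbers, 2 fusion protein against 5 combination libraries gave 11 higher and 5 lower, where 10.4% and 18.5% of all tested genes were.

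Within groups the genes varied together only weakly. The mean correlation over pairs of the 75 genes, from deviations of the libraries from their group means, was 0.095, against 0.041 for all tested genes. Among the GC-rich genes it was 0.32, among the GC-poor ones 0.050, and between both kinds 0.010. With the trends removed, the values were 0.088, 0.088 and 0.077, against 0.004 for all tested genes. All pairs share the same 16 libraries, and no test was made.

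Of 6 measured proteins of the mitoribosome with other symbols, 2 rose with the fusion protein and 5 with the combination, with median differences of 0.11 and 0.24. Of all tested genes 12.0% and 24.2% rose. Aurkaip1 averaged 1185 ± 269 with the fusion protein and 822 ± 116 in vehicle (SD, n = 6 and 5), a log2 difference of 0.45 ± 0.13 (limma adjusted p 0.0147). Chchd1 was higher by 0.29 ± 0.09. Dap3, a GTP-binding small-subunit protein also known for its role in cell death, averaged 1193 ± 89 with the combination and 989.4 ± 30.1 in vehicle (0.24 ± 0.06, adjusted p 0.00379). Ict1, which frees stalled ribosomes, was higher with the combination by 0.21 ± 0.06 (adjusted p 0.00994), and lower with the fusion protein than with the combination by -0.16 ± 0.06 (adjusted p 0.048).

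The factors that build and run the mitoribosome were counted next. Of 23 genes for assembly and rRNA modification, 4 rose with the fusion protein (17.4%) and 8 with the combination (34.8%), and none fell. The medians were 0.09 and 0.13. Of all tested genes 12.0% rose and 13.7% fell with the fusion protein, and 24.2% and 12.3% with the combination. Ngrn and Rpusd4, both needed for the 16S rRNA, rose with the fusion protein by 0.33 ± 0.08 and 0.23 ± 0.06. Mtg1, a GTPase of large-subunit assembly, and Tfb1m, the 12S rRNA methyltransferase, rose with the combination by 0.34 ± 0.07 and 0.33 ± 0.06. Of 15 translation factors and related proteins, 3 rose with the fusion protein (20.0%), and 7 rose (46.7%) and 1 (the elongation factor Tsfm) fell with the combination. Slirp, which stabilises mitochondrial mRNAs together with Lrpprc, rose in both, by 0.29 ± 0.07 and 0.46 ± 0.08, and so did the ribosome recycling factor Mrrf, by 0.17 ± 0.06 and 0.29 ± 0.06. Taco1, an activator of Co1 translation, rose with the fusion protein by 0.30 ± 0.07. With the trends removed, 2 assembly genes rose (8.70%) and 2 fell with the fusion protein, and 6 rose (26.1%) and 2 fell with the combination. Of the translation factors 1 rose (6.67%) and 3 fell with the fusion protein, and 3 rose (20.0%) and 1 fell with the combination. Of all genes 12.6% then rose and 13.0% fell with the fusion protein, and 15.5% and 10.6% with the combination.

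Of 20 genes for mitochondrial aminoacyl-tRNA synthetases and tRNA amidation, 2 rose and 1 fell with the fusion protein, and 6 rose and 3 fell with the combination. These are 10.0% and 5.0%, and 30.0% and 15.0%, where 12.0% and 13.7%, and 24.2% and 12.3%, of all tested genes rose and fell. With the trends removed, 2 rose (10.0%) and 1 fell (5.0%) with each treatment. All genes then rose and fell in 12.6% and 13.0% of cases with the fusion protein, and in 15.5% and 10.6% with the combination. Qrsl1, which makes glutaminyl-tRNA, rose by 0.14 ± 0.05 and 0.28 ± 0.05. Lars2 (leucine) fell with both (-2.59 ± 0.60 and -2.80 ± 0.62), with medians of 1567.5 in fusion protein, 1018 in combination and 7202 in vehicle libraries; the medians of mt-Rnr1 were 7095, 6284 and 17735. Of 12 genes for mitochondrial DNA transcription and RNA processing, 2 rose with the fusion protein (16.7%), and 4 rose (33.3%) and 1 fell (8.33%) with the combination. Hsd17b10, a subunit of mitochondrial RNase P, rose by 0.38 ± 0.10 and 0.51 ± 0.10, as did its partner Trmt10c with the fusion protein by 0.23 ± 0.08. Polrmt, the mitochondrial RNA polymerase, fell with the combination (-0.57 ± 0.14, limma adjusted p 0.00339). With the trends removed, 2 genes of this list rose and 2 fell with the fusion protein, and 1 rose and 3 fell with the combination; Polrmt had -0.28 (adjusted p 0.0457), and Trmt10c did not pass.

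Of 9 nuclear regulators of mitochondrial genes, none rose and 2 fell with the fusion protein, and 1 rose and 4 fell with the combination. Of all tested genes 12.0% rose and 13.7% fell with the fusion protein, and 24.2% and 12.3% with the combination. Ppargc1a, the coactivator PGC-1alpha, averaged 599.7 ± 116 with the fusion protein and 804 ± 140 in vehicle (SD, n = 6 and 5), a difference of -0.36 ± 0.11 (limma adjusted p 0.0253). Ppargc1b fell with both, by -0.29 ± 0.07 each. Myc fell with the combination (-0.47 ± 0.09), and Gabpa, the DNA-binding part of GABP, rose (0.31 ± 0.07, adjusted p 0.0019). For the factors behind the other motifs, Nrf1 had -0.16 ± 0.08 and -0.11 ± 0.08 and Yy1 -0.13 ± 0.12 and 0.04 ± 0.13, none past the threshold.

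Of 23 genes for mitochondrial protein import, 5 rose with the fusion protein (21.7%), and 12 rose (52.2%) and 1 fell with the combination. Grpel1 and Timm8b led both with differences of 0.36 to 0.49. Of all tested genes 12.0% and 24.2% rose. Of the 13 mRNAs of mitochondrial DNA, the templates of the mitoribosome, only 7 passed the filter and were tested. Among these 7, mt-Nd6 fell with both treatments (-1.26 ± 0.26 and -1.11 ± 0.27) and mt-Co1 rose with the combination (0.54 ± 0.11). With the trends removed, 5 of the 7 fell with the fusion protein (71.4%, all genes 13.0%). With the combination 1 fell (14.3%), near the 10.6% of all genes, and none rose, mt-Co1 having 0.19 (adjusted p 0.141). Of 76 nuclear genes for oxidative phosphorylation, 42 rose with the fusion protein and 41 with the combination and none fell, with medians of 0.30 and 0.27. Uqcrb of complex III rose by 0.66 ± 0.07 and 0.84 ± 0.08. Of 75 cytosolic ribosomal protein genes, 63 rose with the fusion protein, and 34 rose and 1 fell with the combination, with medians of 0.39 and 0.23. Rpl35a rose by 0.50 ± 0.06 and 0.61 ± 0.06. In the direct comparison 16 cytosolic ribosomal protein genes were higher with the fusion protein and 1 lower, against 5 and 6 of the mitochondrial set. There, 7.35% of all tested genes were higher and 22.2% lower. With the trends removed, 44 and 36 cytosolic genes rose and 23 and 23 of the oxidative phosphorylation genes, where 12.6% and 15.5% of all genes did. Whether the sets differ from each other was not tested.

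**Figure D5:**
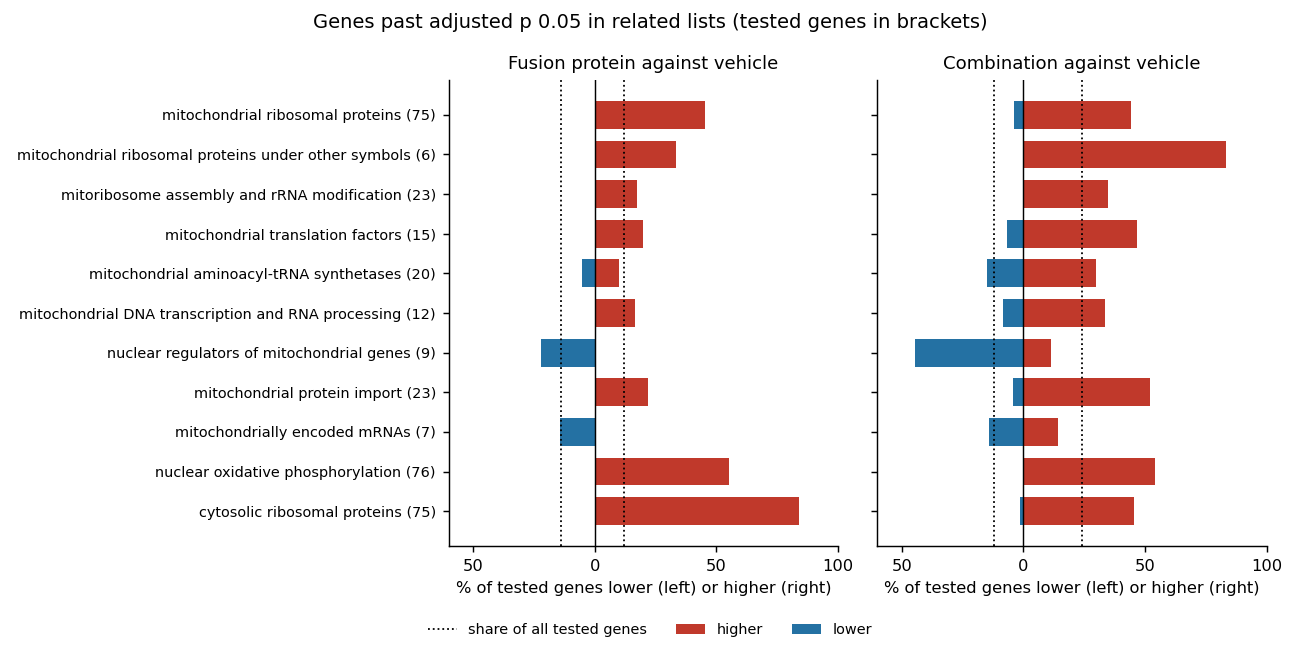
Percent of the tested genes of each list that were higher (red, right) or lower (blue, left) at adjusted p under 0.05, with the number tested in brackets, for the fusion protein (left panel) and the combination (right panel) against vehicle. Dotted lines mark the shares over all tested genes, 12.0% and 13.7% on the left and 24.2% and 12.3% on the right.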

How the data were processed

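RNA of 16 mouse DRG libraries was polyA-selected, per the labels. Per the submitters' processing notes, FastQC, STAR, HTSeq, DESeq2 and build GRCm38 were used; versions and the strand setting are not given in the sources used here. The table the authors deposited holds DESeq2 variance-stabilised expression on the log2 scale. Its inverse has 2 parameters; with these set from the 60 lowest levels, 100% of the 11441 different values came out whole within 0.01. Libraries had thus been scaled before the transform, read depth is unknown and no counting interval is given; the transform compresses differences of weakly expressed genes. GC content is in percent, per the file headers. A p-value and an adjusted p-value deposited by the authors name no comparison and were not used.

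Genes with a mean of at least 6.99, which is 1 above the lowest value, were tested in 1 model of all libraries (limma 3.58.1, R 4.3.3; trend and robust options, two-sided), adjusted by Benjamini-Hochberg over 13385 genes with a threshold of 0.05. The fit was tested on simulated data. Errors of differences are SEs. Trends were removed per library with natural splines (4 degrees of freedom each) on GC content and log2 exonic length of GENCODE. Python 3.11.15 was used for tables and plots.

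Named were the 8 largest increases and decreases per comparison, a panel by role, the genes nearest the filter, the extremes per length and up to 2 genes per other list; 1 gene that this rule names is not reported here. Mrps11, Mrps28, Nrf1, Yy1, Tsfm Mrps6 and genes named for overlaps or neighbours were chosen after their values were seen. Mrpl58 of the panel is listed as Ict1. The genes and lists were chosen with earlier results of these data known. Alternatives were filters, normalizations, fits, thresholds, the late label numbers, a replicate block, trend removal and the omission of each library.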

Additional observations from a re-analysis of the deposited data

Results flagged for a closer look

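In each group, the values of the named genes were searched for a single library far from the others, by the share of the group's range taken by its gap to the next library. Of 117 groups searched 8 stood out, where chance gives about 1 in 20. Mrpl54 was flagged in both groups of its comparison: combination replicate 5 was low, at 219 with the others at 294 to 329, and vehicle replicate 1 was high, at 538 with the others at 333 to 379. Mrps7 was low in combination replicate 2, at 467 with the others at 579 to 630. Mrps36 was high in combination replicate 1, at 254 with the others at 139 to 151. In fusion protein replicate 1, Mrpl24 was high at 983 (others 824 to 859) and Mrpl23 at 87 (others 60 to 65). In vehicle libraries, Mrpl17 was high in replicate 1, at 601 (others 498 to 524), and Mrpl39 in replicate 4, at 767 (others 637 to 671).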

How the results depend on the processing

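Against vehicle, 34 genes were called with the fusion protein and 36 with the combination, and 11 between the treatments. With trends removed they were 18, 21 and 3, with late label number added 19, 9 and 5, and with the replicate block added 17, 23 and 3. Within label numbers 1 to 8 the fusion protein gave 15, where 7.67% of all genes were higher and 8.49% lower. Within 12 to 19, with 1 vehicle library, the combination had a median of 0.16 (all genes, 0.06). A threshold of 0.01 left 14 for the fusion protein (all genes, 6.25% higher and 6.96% lower) and 2 between the treatments (2.22% and 4.56%). A threshold of 0.1 gave 19 between them (10.9% and 31.2%). The direct count was 6 without a filter, 7 with quantile normalization, and 20 with late label number as a covariate. All genes were then higher and lower in 3.80% and 8.77%, 7.26% and 10.5%, and 10.0% and 22.8% of cases. Leaving out 1 library gave 21 to 34 for the fusion protein, 31 to 36 for the combination and 4 to 15 between them. Calls kept in all omissions numbered 20 of 34, 31 of 36 and 4 of 11; in all settings, 6, 3 and 0.

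Whether same-numbered libraries are paired is not stated, and their correlations do not settle it. Their deviations correlated at r = -0.196 to 0.598, over 0.1 in 7 of 15 pairs. Pairs of replicate 2 had 0.453, 0.464 and 0.598. In all, 6 of 16 libraries correlated best with their own number. With a replicate block the counts were 30, 35 and 7.

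Of named genes called in the original fit or the alternative, those whose direction turned did so with trends removed. For the fusion protein these were Mrps18c (-0.0054, and -0.0022 with the block) and Mrpl10 (-0.14 with late label number, -0.16 with the block). For the combination they were Mrps18c (-0.040, also with the block), Mrpl45 (-0.015, also with the block; -0.053 with late label number), Mrpl46 (-0.10 with late label number) and Mrps34 (0.0041, also with the block; 0.012 with late label number). The cause was not tested.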
